A study of Mus musculus with 12 samples.

Results

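The PPAR, ERR and PGC-1 regulators of energy metabolism are a network of nuclear receptors and the proteins that switch them on or off. Their 10 genes, Ppara, Ppard, Pparg, Rxra, Ppargc1a, Ppargc1b, Esrra, Esrrb, Esrrg and Nrip1, were chosen by symbol. All 10 had a row among the 21959 gene IDs of the read count table, and all 10 passed the filter on low counts that left 12384 genes for testing. The table holds poly-A RNA of heart ventricles from 6 wild-type (WT) and 6 cardiac-specific Vps13c knockout (Vps13c-cKO) male mice, all 7 weeks old and fed chow. Vps13c encodes a lipid transport protein that spans contacts between organelles, and the comparison asks how the ventricular transcriptome differs when it is depleted. Titles number the mice within each group. The sources used here do not name the recombinase driver, the strain, the deleted exons, or any driver or floxed allele in WT mice. A driver and the deletion therefore cannot be told apart. Nothing beyond the titles says how the mice relate, so p-values measure the spread between these libraries.

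Peroxisome proliferator-activated receptors (PPARs) are activated by fatty acids and their derivatives, bind DNA as partners of retinoid X receptors (RXRs), and raise genes of fatty acid uptake and oxidation. Oestrogen-related receptors (ERRs) have no known natural oestrogen ligand and control genes of the tricarboxylic acid cycle and the respiratory chain. PGC-1 coactivators dock on both families and set how strongly they act, while the corepressor RIP140, the product of Nrip1, opposes them. The heart draws most of its energy from fatty acids and is rich in these factors.

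Libraries held 12484523 to 15562942 counts. Vps13c itself ranged from 54.6 to 68.6 CPM (counts scaled to library size with TMM factors) in WT and from 16.3 to 20.3 CPM in Vps13c-cKO, so every knockout library was below every WT library. Mitochondrially encoded genes took 30.1% ± 0.761 of counts in WT against 31.2% ± 0.606 in knockouts (SD, n = 6 each; exact permutation test, two-sided, p = 0.0238). Genes with at least 1 count numbered 14861 to 15024 in WT and 15137 to 15406 in knockouts, without overlap (exact permutation p = 0.00216, the smallest that 6 against 6 allows). The difference in total counts did not pass (exact permutation p = 0.145). The part of both differences in the results was not tested. Cardiomyocyte markers were abundant, with 60097 to 64746 CPM summed over 10 genes in WT and 58024 to 62471 CPM in Vps13c-cKO. This sum was not used to tell ventricle from atrium. One WT library stood apart on atrial markers. WT mouse 4 had 405 counts of the atrial light chain Myl7, against 0 to 2 in the other WT mice and 0 to 5 in Vps13c-cKO. It had 114 counts of Sln, an atrial regulator of the calcium pump, against 0 in the other WT mice, and 433 counts of Myl4 against 8 to 19. Calls of members that this library moves are given with and without it.

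The coactivator gene Ppargc1a (ENSMUSG00000029167, chromosome 5) was the single member that passed the threshold in the comparison of all 12 mice. PGC-1alpha, its product, is a main driver of mitochondrial and fatty acid oxidation genes in muscle. Ppargc1a counts ran from 186.8 CPM through a median of 204.1 to 252.4 CPM in WT, and from 132.9 CPM through a median of 156.9 to 164.5 CPM in Vps13c-cKO. All 6 knockout mice lay below all 6 WT mice, and the WT mice were the more spread, with a coefficient of variation of 13.6% against 8.08%. The mean fell from 212 ± 28.8 to 153 ± 12.4 CPM (SD, n = 6 each), or 72.3% of WT. The log2 fold change was -0.47 ± 0.07 (SE), with a 95% interval of -0.62 to -0.32 and an adjusted p of 0.000133 (edgeR quasi-likelihood test, Benjamini-Hochberg over all tested genes). Without WT mouse 4 the estimate was -0.50 ± 0.07 (adjusted p = 9.39e-05). Of all 12384 tested genes, 10.7% were called in either direction, 5.1% were called lower, and 2.18% had all knockout mice below all WT mice. A higher call was made for 5.65%, and 4.93% had groups without overlap in either direction. Against that, 1 of 10 members was called, 1 lower and 0 higher, and 1 had no overlap, a share near that of all genes. DESeq2 and limma-voom also gave 1 lower and 0 higher. With an unadjusted p under 0.05, edgeR had 3 members lower and 0 higher. The share of all genes under that unadjusted threshold was not computed, so this count is no result about the members. In bulk RNA, fewer cells of a type and less RNA per cell cannot be told apart.

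The stretch of 250 bases before the RefSeq start of Ppargc1a (GRCm38.p6, chr5:51567726-51567975, minus strand) is shown because this is the promoter of the member that fell. Capitals mark the 1 match to TGACG, the core of the element bound by CREB, searched on both strands and here read as its reverse complement. Such a match stood in 17.8% of all 32851 promoter stretches of that length, and it is a match of letters, not a measured site.
Ppargc1a: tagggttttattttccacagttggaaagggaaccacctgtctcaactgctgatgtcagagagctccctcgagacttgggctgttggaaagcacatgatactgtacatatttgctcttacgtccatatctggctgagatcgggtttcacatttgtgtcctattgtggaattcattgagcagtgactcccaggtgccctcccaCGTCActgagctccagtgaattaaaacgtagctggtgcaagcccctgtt

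Ppargc1b (ENSMUSG00000033871, chromosome 18), which encodes the related coactivator PGC-1beta, was far less abundant and did not pass the threshold. Its counts ran from 12.1 through 15.1 to 18.3 CPM in WT and from 12.1 through 14.7 to 15.7 CPM in Vps13c-cKO (lowest, median and highest mouse). The groups overlapped, with 1 knockout mouse below the WT range. The log2 fold change was -0.10 ± 0.10 (SE), and its 95% interval ran from -0.30 to 0.10, so a decrease to 81.2% of WT lies within it. Per kilobase of exon, Ppargc1a made up 89.3% ± 2.32 of the sum of both coactivators in WT and 86.7% ± 1.71 in Vps13c-cKO (SD, n = 6 each). That sum was 36.02 ± 4.17 CPM per kb in WT and 26.8 ± 1.83 CPM per kb in Vps13c-cKO.

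**Figure D1:**
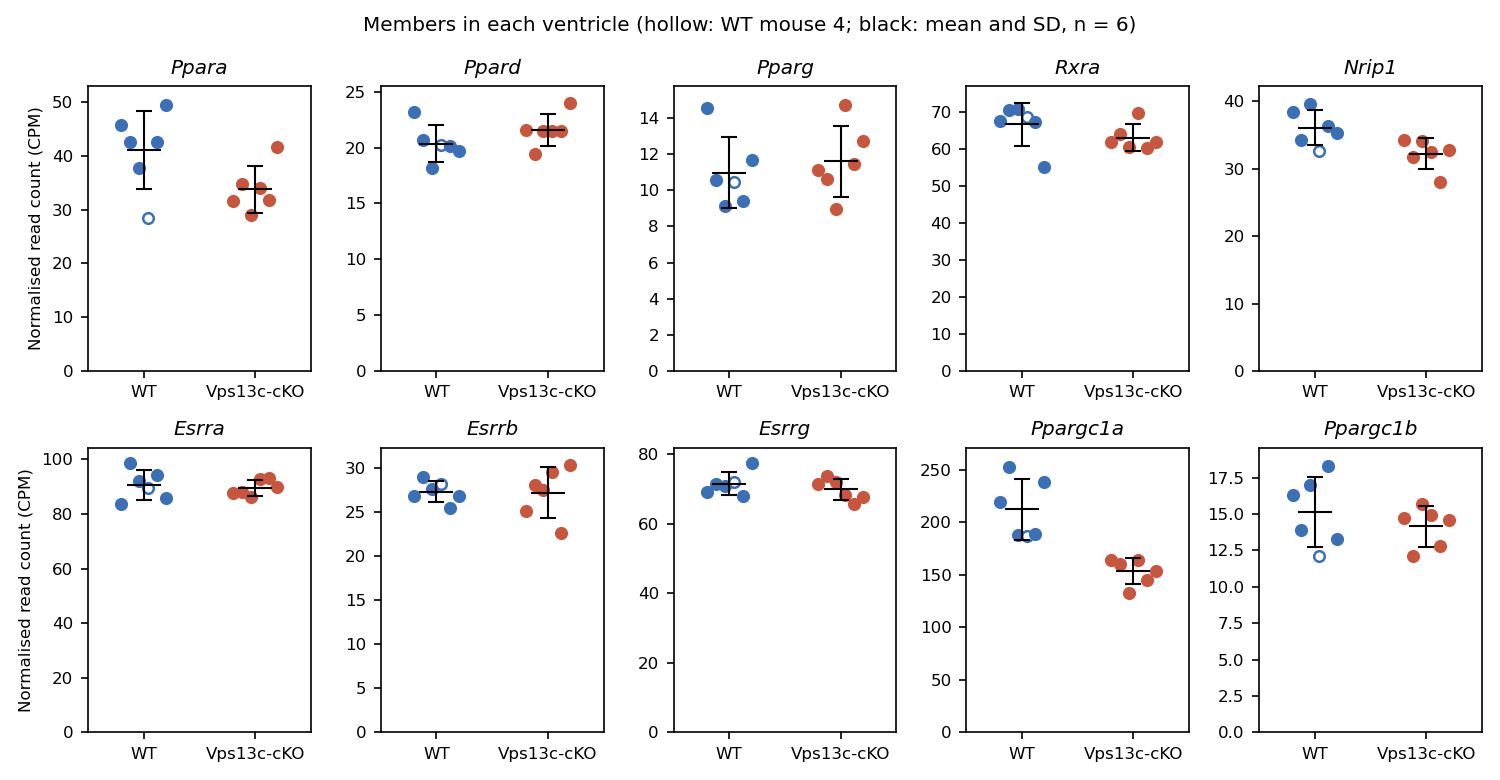
Normalised read counts (CPM, vertical axes from 0) of the 10 members in each of 6 WT and 6 Vps13c-cKO ventricles, 1 point per mouse, with mean and SD in black. For Ppargc1a every knockout point lies below every WT point, and WT mouse 4 (hollow) is the lowest WT point for Ppara (28.5 CPM), Ppargc1a (186.8 CPM), Ppargc1b (12.1 CPM) and Nrip1 (32.6 CPM).

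Among the PPARs, Ppara (ENSMUSG00000022383, chromosome 15) had the largest difference, and whether it passed depended on single mice. PPARalpha is the isotype best known for fatty acid oxidation in the heart. Its counts ran from 28.5 through 42.6 to 49.4 CPM in WT and from 28.9 through 32.9 to 41.7 CPM in Vps13c-cKO. The lowest of all 12 mice was WT mouse 4, the library with atrial markers, and the highest knockout was mouse 6. All 6 knockout mice lay below the WT median. The mean was 41.1 ± 7.31 CPM in WT and 33.8 ± 4.37 CPM in Vps13c-cKO (SD, n = 6 each), a log2 fold change of -0.28 ± 0.10 (SE; 95% interval -0.49 to -0.07). The adjusted p was 0.0784, above the threshold. Without WT mouse 4 the WT range was 37.7 to 49.4 CPM, 5 of 6 knockout mice lay below it, and the log2 fold change was -0.37 ± 0.08 (SE, adjusted p = 0.00427). Without Vps13c-cKO mouse 6 the log2 fold change was -0.35 ± 0.10 (SE, adjusted p = 0.0223). Leaving out each of the 12 mice in turn gave adjusted p-values from 0.00427 to 0.171. In this comparison without WT mouse 4, 11.2% of 12445 genes were called, and 5.4% of the 12445 were called lower. The part of atrial tissue in the value of that mouse was not tested.

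Ppard (ENSMUSG00000002250, chromosome 17) and Pparg (ENSMUSG00000000440, chromosome 6) were at or slightly above the WT level, with overlapping groups. PPARdelta is expressed in most tissues and acts on fatty acid and glucose use in muscle. Ppard ran from 18.2 through 20.2 to 23.2 CPM in WT and from 19.5 through 21.5 to 24.0 CPM in Vps13c-cKO. Its log2 fold change was 0.09 ± 0.06 (SE; 95% interval -0.05 to 0.22, adjusted p = 0.465). PPARgamma is the isotype of fat cells and also occurs in macrophages and endothelium. Pparg ran from 9.12 through 10.5 to 14.5 CPM in WT and from 8.96 through 11.3 to 14.7 CPM in Vps13c-cKO, and every WT mouse lay inside the knockout range. Its log2 fold change was 0.08 ± 0.12 (SE; 95% interval -0.16 to 0.33, adjusted p = 0.732), the widest interval of the 10 members, on 125 to 196 counts per mouse. Fat cell markers were near 0 beside it. None of the 8 adipocyte markers passed the filter, their sum ran from 0.460 to 2.83 CPM in WT and from 0.298 to 10.02 CPM in Vps13c-cKO, and Adipoq had 0 to 6 counts per mouse. The 10.02 CPM came from knockout mouse 1, in which 111 counts fell on Car3, a gene that skeletal muscle expresses as well.

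Rxra (ENSMUSG00000015846, chromosome 2), the gene of the RXR partner shared by all PPARs, did not pass the threshold either. It ran from 55.0 through 68.0 to 70.6 CPM in WT and from 60.1 through 61.8 to 69.7 CPM in Vps13c-cKO. Of the WT mice, 5 lay between 67.3 and 70.6 CPM, above 5 of the 6 knockout mice, and WT mouse 6 lay below all knockouts at 55.0 CPM. The log2 fold change was -0.08 ± 0.05 (SE; adjusted p = 0.399). Without WT mouse 6 it was -0.13 (adjusted p = 0.0595, the lowest of a range up to 0.571 over the 12 leave-one-out fits), which still missed the threshold.

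Nrip1 (ENSMUSG00000048490, chromosome 16) was the other member whose call depended on WT mouse 4. RIP140 is a corepressor that restrains ERR and PPAR targets in muscle and fat. Nrip1 ran from 32.6 through 35.9 to 39.7 CPM in WT and from 28.01 through 32.7 to 34.3 CPM in Vps13c-cKO. The lowest WT value was that of mouse 4, and 3 knockout mice lay below it. The log2 fold change was -0.16 ± 0.06 (SE; 95% interval -0.28 to -0.04, adjusted p = 0.0781). Without WT mouse 4 it was -0.19 ± 0.06 (SE, adjusted p = 0.0374), and all 6 knockout mice then lay below all 5 WT mice, which held for 3.11% of genes. Over the 12 leave-one-out fits the adjusted p ran from 0.0374 to 0.181.

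The 3 ERR genes, Esrra (ENSMUSG00000024955, chromosome 19), Esrrb (ENSMUSG00000021255, chromosome 12) and Esrrg (ENSMUSG00000026610, chromosome 1), lay close to the WT level, with narrow intervals for Esrra and Esrrg. ERRalpha is the isotype most tied to PGC-1alpha, and its gene is itself a known PGC-1alpha target. Esrra ran from 83.7 through 90.7 to 98.6 CPM in WT and from 86.1 through 88.9 to 93.2 CPM in Vps13c-cKO, so all knockout mice fell inside the WT range. Its log2 fold change was -0.02 ± 0.04 (SE), and the 95% interval allows 92.9% to 105% of the WT level. Esrrg, which encodes the isotype of highly oxidative tissues and of the switch to oxidative metabolism around birth, ran from 68.0 through 71.2 to 77.5 CPM in WT and from 65.9 through 70.0 to 73.7 CPM in Vps13c-cKO. Its log2 fold change was -0.03 ± 0.04 (SE), with an interval of 92.0% to 104% of WT. Esrrb, better known from stem cells and placenta, ran from 25.5 through 27.2 to 28.9 CPM in WT and from 22.6 through 27.8 to 30.4 CPM in Vps13c-cKO. Here the knockout mice were the more spread, with 2 above and 2 below the WT range, and coefficients of variation of 10.7% against 4.44%. Its log2 fold change was -0.00 ± 0.06 (SE; interval 90.8% to 110% of WT). The adjusted p-values were 0.856 for Esrra, 0.697 for Esrrg and 0.984 for Esrrb. Exons of Esrra share 73 of 4387 bases with Trmt112 on the opposite strand, and reads there cannot be told apart without strand.

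**Figure D2:**
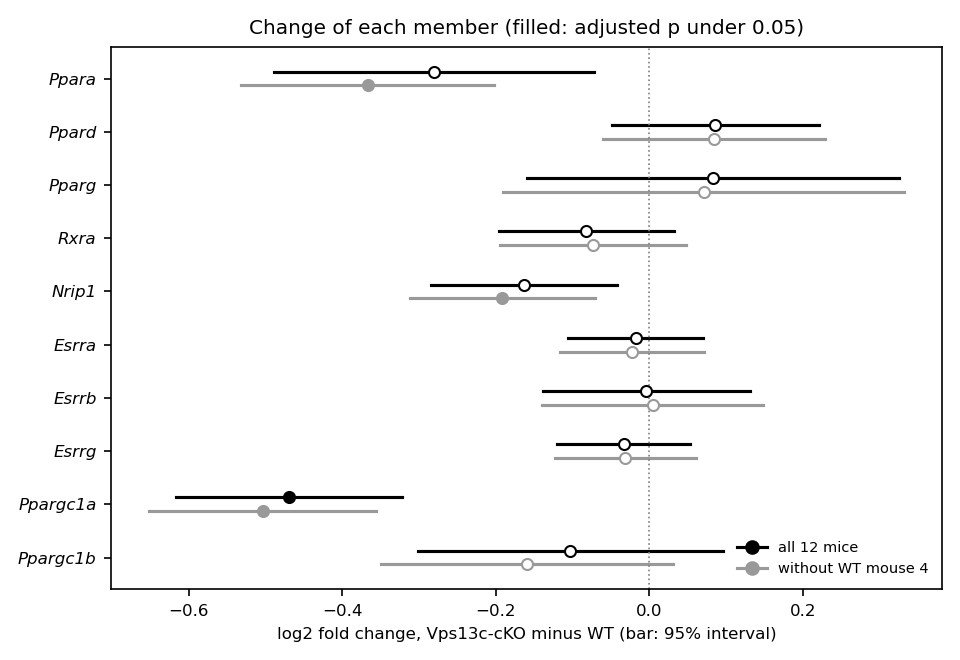
Log2 fold change (Vps13c-cKO minus WT, horizontal axis) of each member with its 95% interval from edgeR, over all 12 mice in black and without WT mouse 4 in grey, filled where the adjusted p is under 0.05. Ppargc1a is filled in both, at -0.47 and -0.50, and Ppara and Nrip1 are filled in grey alone.

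Levels were set beside each other per length of exon (CPM per kb, over all exons of GENCODE M21). That length merges the exons of every annotated transcript of a gene. Which transcripts the ventricle uses was not tested. The order of members and the family shares per kb depend on this length. In WT the order was led by Ppargc1a at 32.2 ± 4.37 CPM per kb, then Esrra at 20.7 ± 1.24, Rxra at 12.2 ± 1.07, Esrrg at 11.5 ± 0.528 and Ppara at 10.7 ± 1.90 CPM per kb (SD, n = 6 each). Rxra, Esrrg and Ppara overlapped their neighbours in that order. Well below them came Esrrb at 4.51, Ppargc1b at 3.80, Pparg at 3.71, Nrip1 at 3.15 and Ppard at 2.71 CPM per kb, each overlapping the next. Ppargc1a stood apart from Esrra in WT, where its lowest mouse was at 28.3 and the highest Esrra mouse at 22.5 CPM per kb. In Vps13c-cKO these overlapped, with the lowest Ppargc1a mouse at 20.2 and the highest Esrra mouse at 21.2 CPM per kb. The other places in the order were the same in Vps13c-cKO, save that Pparg and Ppargc1b, and Ppard and Nrip1, exchanged ranks within overlapping ranges.

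The make-up of the receptor families is a description of the same values. Ppara contributed 62.3% ± 4.47 of the summed PPAR level per kb in WT and 56.4% ± 2.48 in Vps13c-cKO, Pparg 21.7% ± 2.87 and 25.1% ± 2.62, and Ppard 15.998% ± 2.03 and 18.5% ± 1.68 (SD, n = 6 each). For the ERRs the shares hardly moved, with Esrra at 56.3% ± 1.85 and 56.5% ± 1.81. The summed ERR level was 36.7 ± 1.31 CPM per kb in WT and 36.2 ± 0.595 CPM per kb in Vps13c-cKO. The 10 members lie on 10 different chromosomes, 0 of them on chromosome 9, which carries Vps13c, or on chromosome 7.

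**Figure D3:**
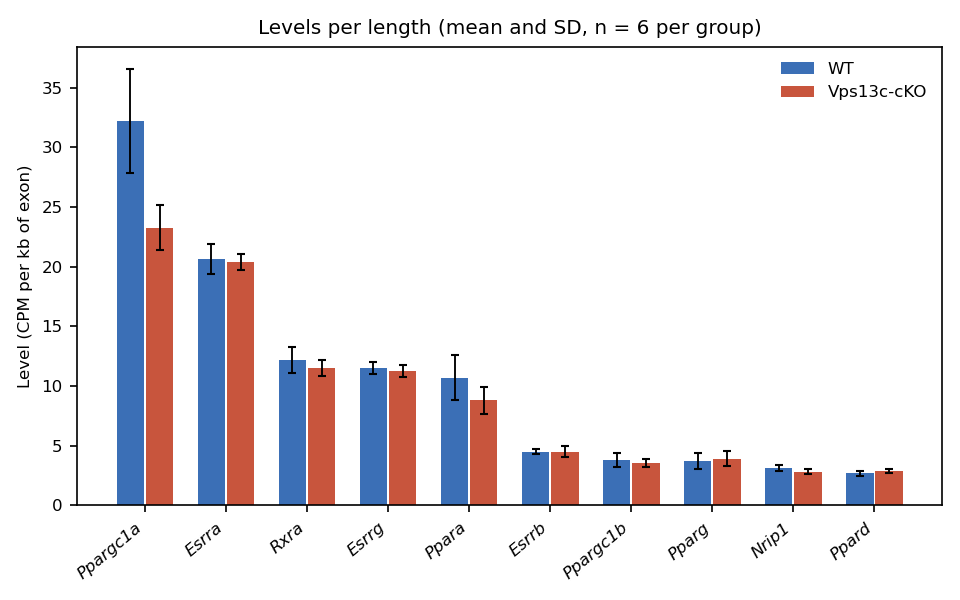
Mean level per kilobase of exon (CPM per kb, vertical axis from 0) of the members in WT and Vps13c-cKO, ordered by the WT mean, with SD over 6 mice per group. Ppargc1a is highest in both groups at 32.2 and 23.3 CPM per kb, and the 3 ERR genes have bars of nearly equal height in both groups.

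The genes whose mouse-to-mouse pattern was most like that of a member were sought for the 3 members with the smallest p. The measure was Pearson's r of log2 CPM over the 12 mice after subtracting each group's mean, among 8479 genes. As the highest of so many values, these are a description. For Ppargc1a they were Susd6 (r = 0.90), Arfgef2 (0.90) and Slc2a12 (0.89), a glucose transporter gene. Slc2a12 was itself lower in Vps13c-cKO, by 0.46 on the log2 scale (adjusted p = 0.00361), while Susd6 and Arfgef2 stood at -0.01 and -0.03. For Ppara they were Man2c1 (0.97), Usp31 (0.94) and Pde4dip (0.92), and for Nrip1 they were Nek4, Nedd4l and Cep85l (each 0.92). Of these 6 genes Cep85l was called lower, by 0.18 on the log2 scale (adjusted p = 0.0480). The others did not pass, with Nek4 at -0.27, Nedd4l at 0.06, Man2c1 at 0.02, Usp31 at -0.20 and Pde4dip at -0.06. Exons of Cep85l share bases with the abundant Pln on the opposite strand.

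Among other RXR genes and partner receptors, 5 of 22 tested genes were called, 4 lower and 1 higher, beside 10.7% of all genes. Rxrg, the RXR isotype of striated muscle, fell from 48.0 ± 1.84 to 39.8 ± 3.52 CPM (mean ± SD, 6 mice a group), with a log2 change of -0.27 ± 0.05 (SE) and an adjusted p of 0.00205. Thra, the main thyroid hormone receptor of the heart, fell by 0.26 ± 0.06 and Nr1d1, a repressor of the clock, by 0.29 ± 0.08 on the log2 scale. These 2 genes share 263 exon bases on opposite strands, and how reads there were counted is not known. Nr4a3, an immediate early orphan receptor, fell from 16.9 ± 2.07 to 6.43 ± 3.14 CPM. Vdr, the vitamin D receptor gene, rose from 0.556 ± 0.196 to 1.15 ± 0.302 CPM, on only 4 to 22 counts per mouse. A filter at a minimum mean of 5 CPM left it untested. The median log2 fold change of the list was -0.09, against 2.75e-05 for all tested genes.

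Cofactors of these receptors were called for 5 of 28 genes, 4 lower and 1 higher, with a median log2 fold change of 0.02. That is 17.9%, beside 10.7% of all genes called, 5.1% lower and 5.65% higher. Perm1, a muscle regulator induced by PGC-1 and ERRs, fell from 357 ± 16.03 to 305 ± 14.7 CPM (mean ± SD, 6 mice a group), with a log2 change of -0.22 ± 0.04 (SE, adjusted p = 0.000503), and all knockout mice lay below all WT mice. Lpin1, whose product lipin-1 acts both in triglyceride synthesis and as a partner of PGC-1alpha and PPARalpha, fell by 0.27 ± 0.06, and Cited2 by 0.33 ± 0.09. Hdac3, which encodes a histone deacetylase of corepressor complexes, fell by 0.13 ± 0.04. The calls of Hdac3 and Cited2 were fragile. That of Hdac3 was also lost with DESeq2. It held without WT mouse 3 but ended without any one of the other 11 mice. That of Cited2 ended without WT mouse 2 or 3. The list had 3 calls without Vps13c-cKO mouse 1 or 4, WT mouse 2 or WT mouse 6. Among all genes, those fits called 1138 of 12455, 1065 of 12457, 1104 of 12459 and 1183 of 12473, in that order.

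Regulators upstream of PGC-1 were called for 4 of 32 genes, 3 lower and 1 higher (median -0.04). This share is close to the 10.7% of all genes, so the count is no result about the list. Prkab2, a regulatory subunit of the energy sensor AMPK, rose from 72.9 ± 3.97 to 85.8 ± 4.70 CPM (mean ± SD, 6 mice a group), at an adjusted p of 0.00137. Hdac5, a repressor of MEF2, fell by 0.19 ± 0.05 (SE) on the log2 scale. Mapk14, which encodes the kinase p38alpha that activates PGC-1alpha, fell by 0.15 ± 0.04, and Creb1, whose product switches on Ppargc1a, by 0.19 ± 0.06. The call of Mapk14 ended without Vps13c-cKO mouse 1 or 2 or WT mouse 2 or 5. That of Creb1 ended without Vps13c-cKO mouse 2, 4 or 5 or WT mouse 1, 2, 3 or 5. The list had 2 calls without Vps13c-cKO mouse 2, WT mouse 2 or WT mouse 5. Those fits called 1186 of 12446, 1104 of 12459 and 1197 of 12444 genes, in that order.

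Transcription and replication factors of mitochondrial genes that act downstream of PGC-1 had 0 of 20 calls by edgeR, beside 10.7% of all genes. At an unadjusted p under 0.05 edgeR had 4 lower and 0 higher, a count without the share of all genes beside it and so no result about the list. DESeq2 called 1 lower and limma-voom 0. The smallest p-values were those of Gabpa, a nuclear respiratory factor subunit (log2 -0.13 ± 0.04 SE, adjusted p = 0.0571), and Mterf3 (-0.15 ± 0.05, adjusted p = 0.0745). Gabpa was called in the fits without WT mouse 1, 4 or 6 or Vps13c-cKO mouse 2, and Mterf3 in the fit without Vps13c-cKO mouse 6.

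Called target genes of the network were mostly lower, by small amounts. Of 35 tested PPAR targets, 17 were lower and 2 higher, or 54.3% called beside 10.7% of all genes, with a median log2 fold change of -0.17. Lpl, the lipoprotein lipase that frees fatty acids from circulating lipid, fell from 7976 ± 169 to 6910 ± 243 CPM (mean ± SD, 6 mice a group), a log2 change of -0.21 ± 0.03 (SE) with an adjusted p of 4.66e-05. Acadm and Acadvl, dehydrogenases of fatty acid oxidation, fell by 0.18 ± 0.03 and 0.21 ± 0.04, and Acot1, an acyl-CoA thioesterase with close gene copies, by 0.86 ± 0.13. Exons of Acadvl share 1151 of 2686 bases with Dvl2 on the opposite strand. In the other direction, Ucp2, which encodes a mitochondrial carrier, rose from 47.2 ± 4.90 to 67.4 ± 7.45 CPM and the lipid droplet coat gene Plin2 from 51.8 ± 5.71 to 61.9 ± 4.42 CPM. Pdk4, a PPAR target that holds back glucose oxidation, was at 2185 ± 392 and 1911 ± 535 CPM and did not pass (adjusted p = 0.462).

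Of 44 tested targets of ERRs and PGC-1, 19 were lower and 1 higher, or 45.5% called beside 10.7% of all genes. The median was -0.09, and 42 of 44 estimates lay below 0. The 10 cardiomyocyte markers had a similar median of -0.08, with 7 estimates below 0 and 40% called, 3 lower and 1 higher. A small fall was therefore not particular to these targets. Cox6a2, the muscle isoform of a cytochrome oxidase subunit, fell from 545 ± 30.0 to 445 ± 15.7 CPM (mean ± SD, 6 mice a group), a log2 change of -0.29 ± 0.04 (SE) with an adjusted p of 2.41e-05. Ndufs1, a core subunit of complex I, fell by 0.19 ± 0.03. Gsr, the glutathione reductase gene, rose by 0.22 ± 0.06, a call that ended without Vps13c-cKO mouse 1 or 6 or WT mouse 2, 5 or 6. The lists share Acadm, Cpt1b and Pdk4. Without WT mouse 4, 18 of 35 PPAR targets and 18 of 44 ERR and PGC-1 targets were lower, beside 5.4% of all genes. Without the genes of chromosome 7 (a choice made after seeing the data), 16 of 31 and 18 of 41 were lower. Among all genes, 1154 were then called in either direction, and the share called lower was not computed. These lists overlap with enzymes already known to be lower in these samples, so their direction is no independent evidence.

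**Figure D4:**
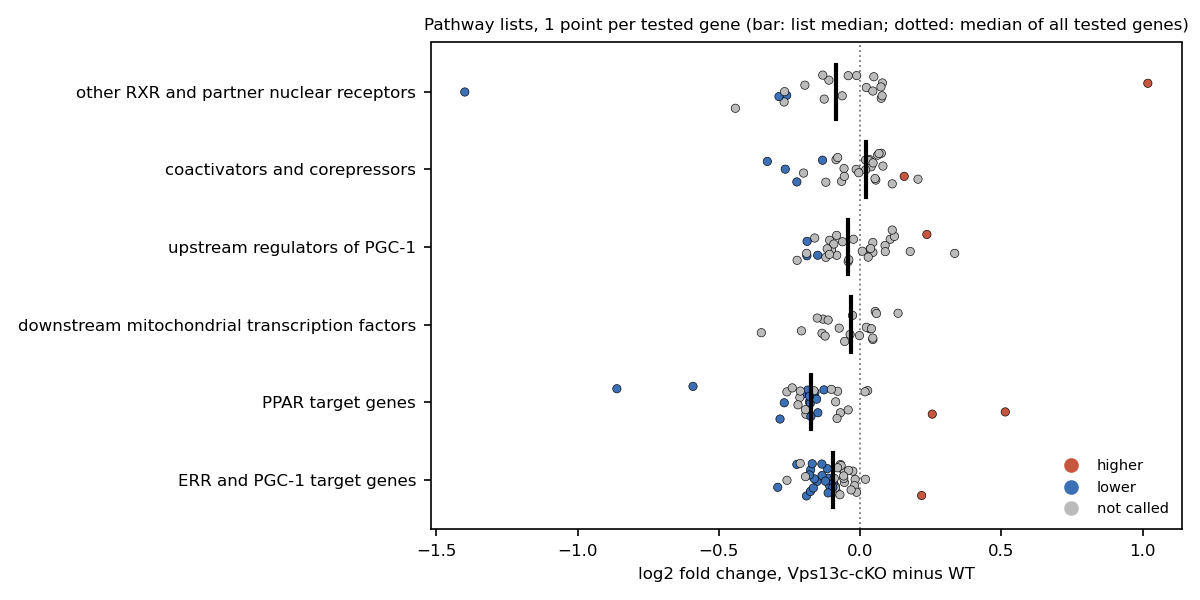
Log2 fold change (Vps13c-cKO minus WT, horizontal axis) of every tested gene on the 6 pathway lists, coloured by call, with the list median as a black bar and the median of all tested genes dotted. The medians of the PPAR targets (-0.17) and of the ERR and PGC-1 targets (-0.09) lie left of the dotted line, with most called genes lower.

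The promoters of Acadm (GRCm38.p6, chr3:153944644-153944893, minus strand) and Perm1 (GRCm38.p6, chr4:156215677-156215926, plus strand) are shown as those of a target on both target lists and of a regulator on the list of ERR and PGC-1 targets, both lower in Vps13c-cKO. Each is the 250 bases before the RefSeq start, and capitals mark the 1 match in each to AGGTCA, the hexamer that PPAR, RXR and ERR recognise, here as its reverse complement.
Acadm: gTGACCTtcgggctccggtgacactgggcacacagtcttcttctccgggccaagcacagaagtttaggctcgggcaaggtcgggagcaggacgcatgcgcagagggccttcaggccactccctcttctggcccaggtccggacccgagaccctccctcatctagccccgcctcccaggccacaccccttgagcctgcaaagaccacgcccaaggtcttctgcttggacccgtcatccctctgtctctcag
Perm1: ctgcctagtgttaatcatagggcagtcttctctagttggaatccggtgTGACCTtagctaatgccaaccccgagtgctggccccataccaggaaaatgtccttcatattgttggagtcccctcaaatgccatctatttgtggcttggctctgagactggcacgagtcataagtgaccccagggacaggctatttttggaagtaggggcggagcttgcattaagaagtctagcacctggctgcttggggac
The letters AGGTCA, on either strand, stood in 8 of 37 promoter stretches of 27 lower targets with an entry, or 21.6%, and in 14.0% of all 32851 stretches. Acadm and Perm1 are among the 8 of these 27 genes that held the letters, so the 2 shown are not typical of the lower targets. Among 17 stretches of 9 members, 3 held it, in Pparg and Rxra. The longer ERR element TCAAGGTCA, which contains AGGTCA, stood in 0.387% of all stretches and in 0 of those of the lower targets and members. These are matches of letters in a short window and say nothing of where the receptors bind.

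Markers of other cell types moved beside these gene groups. Over all tested genes, 5.65% were called higher and 5.1% lower. Of 10 fibroblast markers, 7 were higher and 0 lower, with sums of 1771 to 2060 CPM in WT and 2068 to 2291 CPM in Vps13c-cKO. Of 10 macrophage markers, 4 were higher and 0 lower, with sums of 256 to 345 and 322 to 379 CPM. Of 10 endothelial markers 1 was lower and 0 higher, of 8 tested smooth muscle and pericyte markers 2 were lower and 1 higher, and of 10 cardiomyocyte markers 3 were lower and 1 higher. Of 2 tested atrial markers 1 was higher, of 2 tested brown fat markers 1 was higher (none without WT mouse 4), and of 5 red cell markers 0 were called. The atrial marker Nppa, also a gene of ventricular load, had 156 to 372 counts in Vps13c-cKO and 43 to 110 in WT. The lists with 0 genes in a direction had 0 there by DESeq2 and limma-voom too. At an unadjusted p under 0.05 edgeR also gave 0, except for 2 higher endothelial markers, 1 lower atrial marker and 1 lower brown fat marker. The part of cell composition in the values of the regulators and their targets was not tested.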

How the data were processed

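Poly-A RNA libraries of 12 ventricles were analysed from deposited read counts per gene, read counts per the file headers and whole numbers throughout. The build is GRCm39 and the tools were HTSeq 0.9.1, HISAT2 2.1.0 and fastp 0.22.0, per the submitters' processing notes. No source used here gives the annotation release or whether counting used strand. Gene names and exon lengths came from GENCODE M21 and promoter sequences from RefSeq, both on GRCm38. Of 21959 gene IDs, 21851 had a name.

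Genes kept by filterByExpr were tested with edgeR 4.0.16 (R 4.3.3; quasi-likelihood F test, two-sided, TMM factors), with Benjamini-Hochberg adjustment over all 12384 genes and a threshold of 0.05. A negative log2 fold change is lower in Vps13c-cKO. CPM uses TMM-scaled library sizes. In simulated data for this comparison with 12384 genes, 50 genes per fold were changed, all with a mean of 5 CPM or more. Of these, 84% of genes changed 1.25-fold and 100% of those changed 1.5-fold were recovered, with 11 false calls among 203. Recovery of genes below that level was not tested. Chi-square per gene between mice of a group was 3.11 to 5.62, so no pair was merged. Alternatives were DESeq2 1.42.0, limma-voom (limma 3.58.1), other size factors and filters, no mitochondrially encoded genes, the replicate block and leaving out each mouse; leaving out chromosome 7 genes was chosen after seeing the data.

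The members, the 6 pathway lists and the 9 marker lists were chosen with earlier results of these data known. Named genes are the members, Vps13c, up to 4 called genes in each direction with the smallest p from each pathway list (2 genes where none was called), and the 3 genes most like each of the 3 members with the smallest p. Others (Pdk4, Cpt1b, Cpt1a, and the atrial and adipocyte markers) were named after their values were seen. One gene that this rule names is not reported here.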

Additional observations from a re-analysis of the deposited data

Results flagged for a closer look

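Of 90 sets of 6 values, members, named genes and marker sums in 1 group each, 5 had a mouse far from the rest, where chance flags about 1 in 20 such sets. WT mouse 4 had 76.7 CPM of summed atrial markers, against 3.76 to 7.28 CPM in the other WT mice. Rxra was at 55.0 CPM in WT mouse 6, against 67.3 to 70.6 CPM in the others. Summed adipocyte markers reached 10.02 CPM in Vps13c-cKO mouse 1, against 0.298 to 2.00 CPM. Plin2 was at 62.8 CPM in WT mouse 5, against 47.3 to 52.0 CPM, and Cox6a2 at 475.8 CPM in Vps13c-cKO mouse 5, against 434 to 448 CPM.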

How the results depend on the processing

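The fall of Ppargc1a passed the threshold in all 21 alternatives, with log2 fold changes from -0.50 to -0.41. The number of members called was 1, and 1 to 3 without single mice (2 without Vps13c-cKO mouse 6, where Ppara was added, and 3 without WT mouse 4, where Ppara and Nrip1 were). With the replicate number as a block it was 2, as Ppara passed (log2 -0.28 ± 0.08 SE, adjusted p = 0.0267). The numbers are shared by title alone: deviations of same-numbered mice correlated at -0.04 to 0.06, and 1 of 6 WT mice correlated best with its own number. Estimates near 0 changed sign. Esrra ran from -0.0402 to 0.00733 over the leave-one-out fits, above 0 without WT mouse 2. Esrrb was at 0.0016 with a minimum mean of 5 CPM, and ran from -0.0405 to 0.0442 over the leave-one-out fits (0.0172 and 0.0442 without Vps13c-cKO mouse 1 and 5, 0.0139 and 0.00464 without WT mouse 2 and 4). Genes called ranged from 1065 to 1410 (1331 in the comparison reported), and called genes on the 6 pathway lists from 39 to 53. The median log2 fold change of all genes reached at most 0.0177 (DESeq2). At 125 to 196 counts per mouse, Pparg had the least precise estimate. The cause of the moved calls was not tested.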

Other observations

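Cpt1b, which encodes the muscle isoform of the enzyme that brings fatty acids into mitochondria, had only 77 to 137 counts per mouse, or 7.92 ± 1.12 CPM in WT and 7.49 ± 1.37 CPM in Vps13c-cKO (SD, n = 6 each). The isoform gene Cpt1a, usually the lesser one in adult heart, stood at 82.0 ± 9.31 and 71.9 ± 6.88 CPM. By GENCODE M21, 2744 of the 3372 exon bases of Cpt1b are shared on the same strand with Gm44502, which had 0 counts in all mice. Values of Cpt1b are therefore uncertain, and its missing call (log2 -0.08 ± 0.12 SE, adjusted p = 0.751) says little about this target.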
